A study of Mus musculus with 64 samples.

Results

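The 10 genes described here carry a cell into and hold it back from the start of DNA replication: the D cyclins Ccnd1, Ccnd2 and Ccnd3, the E cyclins Ccne1 and Ccne2, the cyclin-dependent kinases Cdk4 and Cdk6, and the kinase inhibitors Cdkn1a, Cdkn1b and Cdkn2c. They were chosen by symbol, because Ccnd1 was lower after training in livers of knockout mice. All 10 were found among the 20895 gene symbols of the liver table, the 21359 of the heart table, the 17780 of the white fat table and the 18415 of the lung table. All 10 passed the filter on low values in each of these 4 tissues.

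RNA was sequenced from 64 mouse tissue libraries, 20 each of liver and heart and 12 each of inguinal white fat and lung. Each tissue has 4 groups, holding 5 libraries for liver or heart and 3 for fat or lung. Every mouse carried the genotype Cre+:iMSBmal1 fl/fl, an inducible loss of the clock gene Bmal1 (Arntl) in skeletal muscle, and the controls received vehicle. The agent that induced the loss therefore cannot be told apart from the loss itself. The groups were sedentary vehicle, trained vehicle, sedentary knockout and trained knockout. Training was 6 weeks of daily treadmill running, and all tissue was collected 48 hours after the final bout. Ages are not given in the sources used here. Skeletal muscle, where the deletion takes place, is not among these tissues. Nothing beyond the labels says that the libraries of a group are separate animals, so each p reflects only how these samples spread, which may be technical.

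D cyclins are made in response to growth signals and switch on CDK4 and CDK6, which begin to phosphorylate the retinoblastoma protein and so release E2F transcription factors. E cyclins, themselves E2F targets, then switch on CDK2 and the cell enters S phase. p21 (Cdkn1a) and p27 (Cdkn1b) bind many cyclin and kinase pairs, whereas p18INK4c (Cdkn2c) binds CDK4 and CDK6. In adult liver most hepatocytes rest outside the cycle, and a rise of cyclin D1 is a classical early step of liver regeneration. In adipose tissue p18INK4c is known as a gene of fat cell differentiation.

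Levels are given in CPM, counts per megaread: in fat and lung of the library's own effective size, and in liver and heart by dividing the deposited scaled values by 1 factor for the whole tissue, so that the authors' scaling of each library is kept. Fold changes are given as log2 with their standard error (SE). Liver and heart values were tested with limma after adding 1 CPM, and fat and lung counts with edgeR's quasi-likelihood test. A gene is called at a Benjamini-Hochberg adjusted p under 0.05 over all genes of the comparison. Depth was 12.4 to 20.7 M reads a liver library, 14.1 to 21 a heart library, 19 to 31.2 a fat library and 18.7 to 35.7 a lung library. In liver every member rested on at least 15 estimated reads a library.

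Some libraries stood apart. Trained knockout liver 2 held 197 CPM of the skeletal muscle markers, against 6.02 or less in every other liver library. In heart, trained vehicle 5 held 102.6 CPM of hepatocyte markers, and sedentary vehicle 3, trained vehicle 1 and trained knockout 5 held 130.5 to 280.9 CPM of white adipocyte markers. In white fat, trained knockout 2 held 2391 CPM of the 9 hepatocyte markers other than Cyp2e1, a gene that stood at 1071 to 4676 CPM in every fat library, and sedentary knockout 1 held 331 CPM, against 7.2 to 173 CPM in the other 10. Each tissue held the transcripts of its own defining cells: the hepatocyte markers summed to 80236 CPM or more in every liver library, the white adipocyte markers to 25327 or more in every fat library and the alveolar and airway markers to 44938 or more in every lung library. Arntl was lower in trained knockout than trained vehicle liver, at 0.777 ± 0.367 against 2.48 ± 0.779 CPM (SD, n = 5 each), with a log2 fold change of -0.96 (SE 0.23) and a limma adjusted p of 0.034. That call was lost with no filter on low genes, at an adjusted p of 0.0555, and when any of these 10 libraries except trained vehicle replicate 2 and trained knockout replicate 2 was left out, at 0.0509 to 0.0955; with a pseudocount of 0.1 the fold change was -1.62. In heart it was 0.646 to 0.896 CPM in the means of all groups.

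Cyclin D1 (Ccnd1, chromosome 7, 144483668 to 144493569, minus strand, by the coordinates that the fat table lists, which are not those of GRCm38 and are read here as GRCm39) had a coefficient of variation of 49.8% over the 20 livers, which include the knockout livers that chose it, so that spread is a description. That of Ccnd2 was 21.4% and that of Ccnd3 17.2%. In sedentary vehicle livers it stood at 57.4, 31.4, 37.7, 59.7 and 23.5 CPM. In trained vehicle livers it stood at 16.2, 26, 20.6, 24.8 and 20.3 CPM. Of the trained livers 3 of 5 lay below every sedentary one, and the lowest sedentary library, replicate 5, lay inside the trained range. The mean was 41.9 ± 16 against 21.6 ± 3.91 CPM (SD, n = 5 each), which makes a log2 fold change of -0.86 (SE 0.20). The rule that chose the genes names only the knockout livers, but earlier results of these data were known when it was set. The limma fit, however, takes its spread from all 20 livers, the knockout livers that chose Ccnd1 included. Its unadjusted p was 0.00024 and its adjusted p 0.3. A two-sided exact permutation test of Ccnd1 alone gave p = 0.0238, where 0.00794 is the smallest p that 5 against 5 libraries allow. Without sedentary vehicle replicate 5 the fold change was -1.04 and the limma adjusted p 0.0448. That was the only call in 17 alternatives. Over these the fold change ran from -1.04 to -0.713, and the adjusted p by limma or edgeR reached 0.605.

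The choice of genes rests on the knockout livers, whose Ccnd1 values are given as a description. In sedentary knockout livers Ccnd1 stood at 43.1, 29.2, 33.4, 47.1 and 43.6 CPM. In trained knockout livers it stood at 13.5, 15.5, 15.1, 13 and 14.2 CPM. Every trained library lay below every sedentary one, and the trained group had the smallest spread of the 4, with a mean of 14.3 ± 1.03 against 39.3 ± 7.57 CPM. The log2 fold change was -1.38 (SE 0.20), and it ranged from -1.48 to -1.31 over 17 other ways of processing the data or leaving out a library. Sedentary knockout livers differed from sedentary vehicle livers by -0.03 (SE 0.20), and trained knockout from trained vehicle livers by -0.55 (SE 0.20), with no overlap of the latter pair. The training response of knockout mice minus that of vehicle mice was -0.52 (SE 0.28) on the log2 scale.

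**Figure D1:**
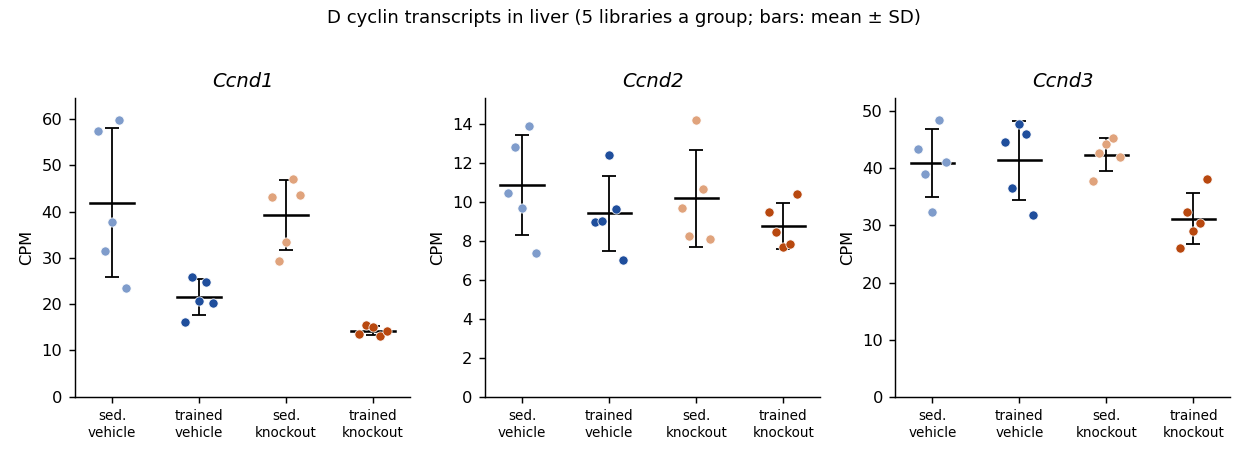
CPM of Ccnd1, Ccnd2 and Ccnd3 in each liver library by group, with a line at the mean and bars of 1 SD (5 libraries a group). Ccnd1 lies at 13 to 15.5 CPM in all 5 trained knockout livers and at 29.2 to 47.1 CPM in the sedentary knockout livers, whereas the Ccnd2 groups overlap.

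Ccnd2 (chromosome 6, 127102671 to 127128012, minus strand), the D cyclin best known from pancreatic beta cells, gonads and B cells, overlapped between all groups. Its 20 liver libraries ranged from 7.05 to 14.2 CPM. Trained against sedentary vehicle livers differed by -0.18 (SE 0.16) on the log2 scale and knockout against vehicle livers by -0.08 both when sedentary and when trained, none of them called.

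Ccnd3 (chromosome 17, 47815976 to 47910614, plus strand), known for its role in lymphocytes and in muscle differentiation, differed in 1 group. Trained knockout livers held 26, 32.3, 29.1, 30.5 and 38.1 CPM. Trained vehicle livers held 44.7, 36.6, 47.8, 46.1 and 31.8 CPM. The lowest trained vehicle library, replicate 5, and the highest trained knockout library, also replicate 5, made the groups overlap. Their means were 31.2 ± 4.49 and 41.4 ± 6.88 CPM (SD, n = 5 each), which is -0.39 (SE 0.12) in log2 at a limma adjusted p of 0.0715. Without trained vehicle replicate 5 the limma adjusted p was 0.0344. That was the only call in 17 alternatives, whose adjusted p by limma or edgeR reached 0.194. The libraries of this comparison include the trained knockout livers in which Ccnd1 was chosen. Vehicle mice showed no such gap with training, at 41.4 against 40.9 CPM, a log2 fold change of 0.01 (SE 0.12), and knockout mice, given as a description, stood at -0.44 (SE 0.12).

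The E cyclins rested on few reads in liver. Ccne1 (chromosome 7, 37797409 to 37806916, minus strand) ranged from 1.15 to 4.75 CPM over the 20 livers, resting on 16 estimated reads at the least. Its groups overlapped in all 4 pairwise comparisons, and the sedentary vehicle group alone spanned 1.15 to 4.75 CPM. Ccne2 (chromosome 4, 11191351 to 11204780, plus strand) was 3.04 ± 0.715 CPM in trained knockout against 2.12 ± 0.434 CPM in trained vehicle livers (SD, n = 5 each). That difference was 0.37 (SE 0.17) on the log2 scale with a limma adjusted p of 0.217, and 3.9, 2.71, 2.18, 3.65 and 2.75 CPM overlapped 2.55, 2.12, 1.39, 2.27 and 2.24 CPM.

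Of the kinases, Cdk4 (chromosome 10, 126899404 to 126903158, plus strand) kept a narrow range in liver. Its 20 libraries lay between 28.5 and 46.2 CPM with a coefficient of variation of 11.7%. In log2 it differed by -0.09 (SE 0.10) for training in vehicle mice, -0.07 for the knockout in sedentary mice and -0.11 for the knockout in trained mice. Cdk6 (chromosome 5, 3393893 to 3581006, plus strand), the partner kinase prominent in blood cells, stood at 13.5, 18.9, 20.4, 16.3 and 17.2 CPM in trained knockout livers. In sedentary knockout livers it stood at 18.3, 22.7, 22.4, 23.1 and 24.4 CPM. The 2 sets overlap through sedentary replicate 1, and the difference of -0.35 (SE 0.12) belongs to the comparison that chose the genes. With training in vehicle mice Cdk6 differed by -0.17 (SE 0.12), limma adjusted p = 0.825.

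Promoters of both kinases are shown because they hold the E-box that the clock pair BMAL1 and CLOCK, and also MYC, are known to bind. RefSeq windows on GRCm38.p6 matched 7 of the 10 genes, 10 windows in all, and the 250 bases before each annotated start were searched on both strands for the E-box CACGTG, for TTTCGCGC and TTTGGCGC of E2F, for the GC box GGGCGG and for TATAAA. The motifs do not overlap one another in the windows printed. Capitals mark every match, a GC box on the opposite strand appearing as its reverse complement.
Cdk4, chr10:127063285-127063534, plus strand: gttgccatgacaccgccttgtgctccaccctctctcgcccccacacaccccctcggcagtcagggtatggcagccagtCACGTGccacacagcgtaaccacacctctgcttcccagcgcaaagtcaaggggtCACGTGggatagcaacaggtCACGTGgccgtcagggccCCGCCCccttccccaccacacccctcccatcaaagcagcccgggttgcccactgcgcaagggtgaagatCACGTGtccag
Cdk6, chr5:3343643-3343892, plus strand: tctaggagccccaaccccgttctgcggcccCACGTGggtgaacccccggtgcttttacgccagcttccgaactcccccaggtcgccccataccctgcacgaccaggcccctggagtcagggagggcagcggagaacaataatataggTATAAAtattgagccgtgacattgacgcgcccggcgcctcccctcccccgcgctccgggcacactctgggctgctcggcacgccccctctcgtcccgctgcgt
The Cdk4 window holds 4 E-boxes, 172, 118, 98 and 11 bases before the start, and 1 GC box. The Cdk6 window holds 1 E-box, 220 bases before the start, and 1 TATAAA. An E-box is present in 6.02% of the 32851 promoter windows of the table, and 4 or more are present in 7 windows, 0.0213%. TTTCGCGC is present in 0.256% of windows, TTTGGCGC in 0.417%, GGGCGG in 32.7% and TATAAA in 12.4%. Neither E2F sequence is in any of the 10 windows. Ccnd1, Ccnd2 and Ccne2 had no window and were not searched. These matches describe letters and not binding.

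Among the inhibitors, Cdkn2c (chromosome 4, 109518073 to 109523954, minus strand) had the lowest adjusted p of the tested members in liver. Trained knockout livers held 3.81, 3.71, 3.5, 3.71 and 4.1 CPM. Trained vehicle livers held 2.57, 2.45, 2.26, 2.59 and 1.62 CPM. Every knockout library lay above every vehicle library. The means were 3.76 ± 0.218 and 2.3 ± 0.401 CPM (SD, n = 5 each), or 0.54 (SE 0.15) in log2, with a limma adjusted p of 0.0563. In a fit of these 2 groups alone the limma adjusted p was 0.0384. That was the only call in 17 alternatives, whose adjusted p by limma or edgeR reached 0.133. Sedentary knockout livers, at 2.36 to 4.51 CPM, overlapped sedentary vehicle livers, at 1.73 to 3.29 CPM.

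Cdkn1a (chromosome 17, 29309953 to 29319697, plus strand), the p53 target p21, was uneven among vehicle livers. Sedentary vehicle livers held 2.06, 3.4, 3.82, 1.65 and 5.59 CPM. Sedentary knockout livers held 1.45, 1.13, 2.42, 1.74 and 1.76 CPM. The SD was 1.56 in the former and 0.476 in the latter, and the ranges overlapped. They differed by -0.61 (SE 0.26) in log2, with an unadjusted limma p of 0.0264 and an adjusted p of 0.995. Cdkn1b (chromosome 6, 134897364 to 134902489, plus strand), which encodes p27, had the smallest coefficient of variation of the 10 genes in liver, 10.2%. It ranged from 23.6 to 33.9 CPM, and its groups overlapped in all comparisons.

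**Figure D2:**
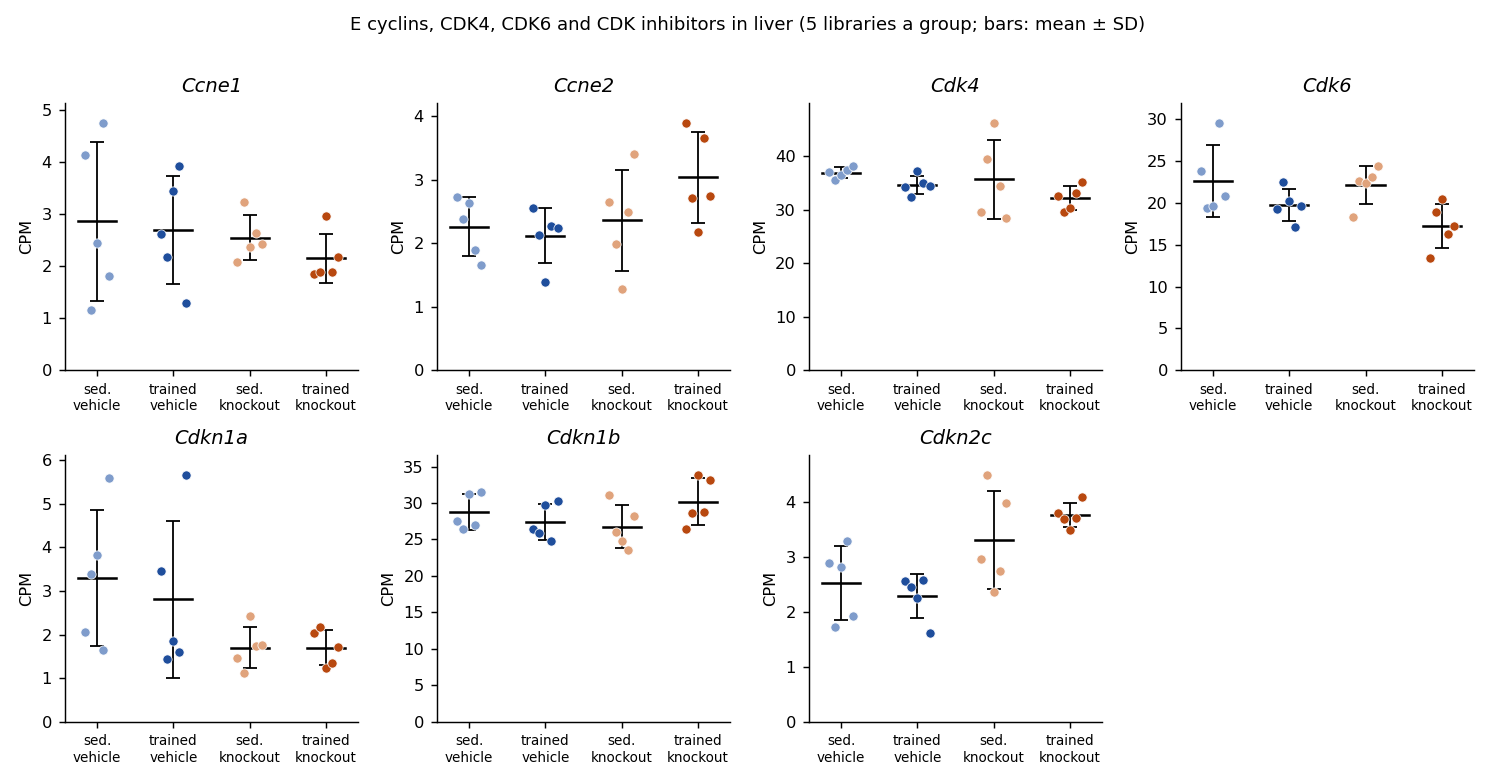
CPM of the E cyclins, CDK4, CDK6 and the inhibitors in each liver library by group, with a line at the mean and bars of 1 SD (5 libraries a group). Cdkn2c in trained knockout livers lies at 3.5 to 4.1 CPM, above the trained vehicle livers at 1.62 to 2.59 CPM, and Cdkn1a spans 1.65 to 5.59 CPM in sedentary vehicle livers.

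Counted together, limma called 0 of the 10 members for training in vehicle livers, where 0% of the 12817 genes tested were called, and 1 member had an unadjusted p under 0.05, against 6.9% of genes. For the knockout in sedentary mice 0 of the 9 members other than Ccnd1 were called, where 0% of genes were called, and 1 had an unadjusted p under 0.05, against 4.81% of genes. For the knockout in trained mice 0 of 9 were called, where 2.63% of genes were called, and 3 had an unadjusted p under 0.05, against 21.9% of genes. edgeR on reads estimated from the scaled values called 0 in each of these 3 comparisons as well, against 0%, 0% and 2.35% of genes. In the contrast that chose the genes, 1 of 10 was past the threshold, Ccnd1 itself, where 0.0234% of genes were. The choice rested on the fall of Ccnd1 there, so that count is a description and cannot be weighed against the share of all genes. For the difference between the training responses, which includes the same livers, 0 of 10 were past the threshold, where 0.0078% of genes were. Ranges did not overlap for 1 of 9 members, Cdkn2c, in the trained knockout comparison, where they did not overlap for 6.61% of all genes. The median log2 fold change of the members was -0.09 for training in vehicle mice, -0.03 for the knockout in sedentary mice and -0.11 for the knockout in trained mice, against medians of all genes between -0.01 and 0.

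In bulk tissue, fewer cells of a type and less RNA per cell cannot be told apart. The macrophage markers, 10 of 10 detected, summed to 161 to 439 CPM in trained knockout livers and 86.2 to 174 CPM in trained vehicle livers, with 2 of the 10 called higher. The hepatocyte markers summed to 80236 to 108803 and 90833 to 116529 CPM in the same groups, and the endothelial markers to 92.1 to 100 and 83.3 to 89.8 CPM. The cholangiocyte markers, 5 of 5 detected, summed to 23.7 to 39.6 and 28.1 to 52.5 CPM, with 1 of the 4 tested called lower and a median log2 fold change of -0.26. The part of these cells in the differences of Ccnd3 and Cdkn2c was not tested. Without trained knockout liver 2, the library with muscle transcripts, Ccnd3 differed by -0.41 and Cdkn2c by 0.54 in the same comparison.

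Of the genes around these members, 91 were listed in 7 groups: the retinoblastoma and E2F axis, other CDK inhibitors, CDK2 and its activators, the degradation of cyclins and p27, p53 targets, growth factor and Wnt inputs to Ccnd1, and S phase and mitosis. In liver 74 of them passed the filter and 1 was called in any of the 5 comparisons, in the one where 2.63% of all genes were. That gene was Met, the receptor of hepatocyte growth factor, which rose in trained knockout livers to 101 ± 11.9 CPM from 69.1 ± 13.1 CPM in trained vehicle livers (SD, n = 5 each). Its log2 fold change was 0.55 (SE 0.13) with a limma adjusted p of 0.0326, and all 5 knockout libraries, at 87.8 to 113 CPM, lay above the vehicle range of 57.3 to 84.6 CPM. With no filter on low genes the adjusted p was 0.0555, and leaving out trained vehicle replicate 1, 3 or 4 or trained knockout replicate 1, 3 or 5 gave 0.0536 to 0.0971. Of the 16 growth factor and Wnt inputs tested, 8 were higher and 8 lower by sign in that comparison, with a median of -0.01, and in vehicle mice 5 were higher and 11 lower with training, with a median of -0.06. The genes of S phase and mitosis were rare in liver: 13 of 21 passed the filter, 0 were called in any comparison by limma, and the proliferation marker Mki67 ranged from 0.524 to 2.53 CPM.

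Over the 20 liver libraries the genes most like Ccnd1, by Pearson's r of log2(CPM + 1) among 11450 others at a mean of 2 CPM or more, were Rtf2 (r = 0.851), Lgals1 (0.836), Htatip2 (0.819), Tlr12 (0.806) and Proca1 (0.804). These libraries share the group differences of Ccnd1, so the values are a description. Lgals1, the gene of galectin-1, had means of 31.9 ± 6.65 and 21 ± 3.22 CPM in sedentary and trained vehicle livers and 33.7 ± 9.55 and 15.2 ± 2.51 CPM in the knockout groups. Rtf2, known for the handling of stalled replication forks, had 81.9 ± 3.18 and 70.2 ± 8.73 CPM in the vehicle groups and 79.4 ± 3.98 and 62.1 ± 4.62 CPM in the knockout groups (SD, n = 5 each). Of the other 9 members Cdk6 was nearest to Ccnd1, at r = 0.733 and rank 15, followed by Ccnd3 at 0.576 and rank 160. With each group's mean removed, r was 0.461 for Cdk6 and 0.169 for Ccnd3. Cdkn1a had r = -0.05 over all livers and -0.61 with the group means removed.

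In heart the group means of Ccnd1 spanned 74.1 to 89.1 CPM, the highest of them in trained vehicle mice. It stood at 75.1, 84.2, 71.8, 72.3 and 75.7 CPM in sedentary vehicle hearts. In trained vehicle hearts it stood at 86.7, 88, 90.8, 105 and 74.5 CPM, and in trained knockout hearts at 64.4, 72.1, 85.8, 76 and 72 CPM. Trained vehicle hearts lay above the sedentary ones except replicate 5, the library with hepatocyte transcripts. The log2 fold change for training in vehicle mice was 0.22 (SE 0.08) with a limma adjusted p of 0.0792, and that for the knockout in trained mice was -0.26 (SE 0.08) with an adjusted p of 0.119. Both rest on the trained vehicle hearts. Without trained vehicle replicate 5 their adjusted p was 0.0197 and 0.0441, and without all 4 libraries holding other-tissue transcripts it was 0.065 and 0.0657, at fold changes of 0.30 and -0.34. Each was called in 1 of 17 alternatives, and the adjusted p by limma or edgeR reached 0.207 and 0.267.

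Ccne1 was rare in heart, and its values were higher after training in vehicle mice, without a call. Its mean over the 20 hearts, 1.03 CPM, passed the filter of 1 CPM only through the trained vehicle hearts, at 1.47 CPM. The other group means were 0.798 to 1.02 CPM. The group that let it pass is also the one compared, so its limma p-values are a description. Sedentary vehicle hearts held 0.794, 0.523, 0.81, 1.03 and 0.834 CPM, on 9 to 17 estimated reads. Trained vehicle hearts held 1.89, 1.63, 1.75, 0.945 and 1.11 CPM, on 17 to 33. Of the trained libraries 4 of 5 lay above every sedentary one. The log2 fold change after adding 1 CPM was 0.45 (SE 0.15), limma adjusted p = 0.0601, and edgeR on estimated reads gave 0.87 with an adjusted p of 0.0635. Leaving out trained vehicle replicate 4 or 5 gave limma adjusted p-values of 0.0369 and 0.042. These 2 were the only calls in 13 alternatives, whose adjusted p by limma or edgeR reached 0.119. Ccnd1 in the same comparison had 17 alternatives, 10 of them leaving out a library, where Ccne1 had 7. In the rest Ccne1 fell below the filter and gave no value.

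Cell markers also differed with training in vehicle hearts. The sums of the erythroid markers, 6 of 6 detected, were 1452 to 2013 CPM in sedentary vehicle hearts and 2255 to 3555 CPM in trained ones, without overlap, and 4 of the 5 tested were called higher. Of the 8 cardiomyocyte markers 3 were called higher and 1 lower, and their sums, 40046 to 45707 and 40708 to 46291 CPM, overlapped. The part of these cells in the values of Ccnd1, Ccne1 and Rbl2 was not tested.

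The other members of the heart overlapped between the groups in every comparison. Cdkn1a ranged most widely of them, from 7.52 to 14.4 CPM with a coefficient of variation of 19.1%, followed by Ccne2 at 1.69 to 3.06 CPM, Cdk6 at 7.38 to 12.3 CPM and Cdkn2c at 7.69 to 11 CPM. Cdk4 ranged from 29.4 to 39.7 CPM, Cdkn1b from 31.5 to 40.6 CPM, Ccnd2 from 112 to 154 CPM and Ccnd3 from 43.2 to 54.8 CPM. limma called 0 of 10 members for training in vehicle hearts, where 8.27% of the 13456 genes tested were called, and 2 members had an unadjusted p under 0.05, against 24.5% of genes. It called 0 members for training in knockout hearts, where 0.0223% of genes were called, 0 for the knockout in sedentary mice, where 0% were, 0 for the knockout in trained mice, where 0.52% were, and 0 for the difference between the training responses, where 0% were. Members at an unadjusted p under 0.05 numbered 0, 0, 1 and 1 in that order, against 11.8%, 6.54%, 15.1% and 8.06% of all genes. edgeR on estimated reads called 0 members in each heart comparison, against 6.58%, 0.02%, 0%, 0.333% and 0% of genes. Of 71 pathway genes tested 1 was called, in the comparison where 8.27% of all genes were: Rbl2, the retinoblastoma relative p130, fell with training in vehicle hearts from 49.2 ± 0.872 to 43.2 ± 2.46 CPM (SD, n = 5 each), or -0.19 (SE 0.05) in log2, with a limma adjusted p of 0.0247. Without the 4 libraries holding other-tissue transcripts its adjusted p was 0.2, and leaving out sedentary vehicle replicate 4 or trained vehicle replicate 1 or 2 gave 0.0519 to 0.071.

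**Figure D3:**
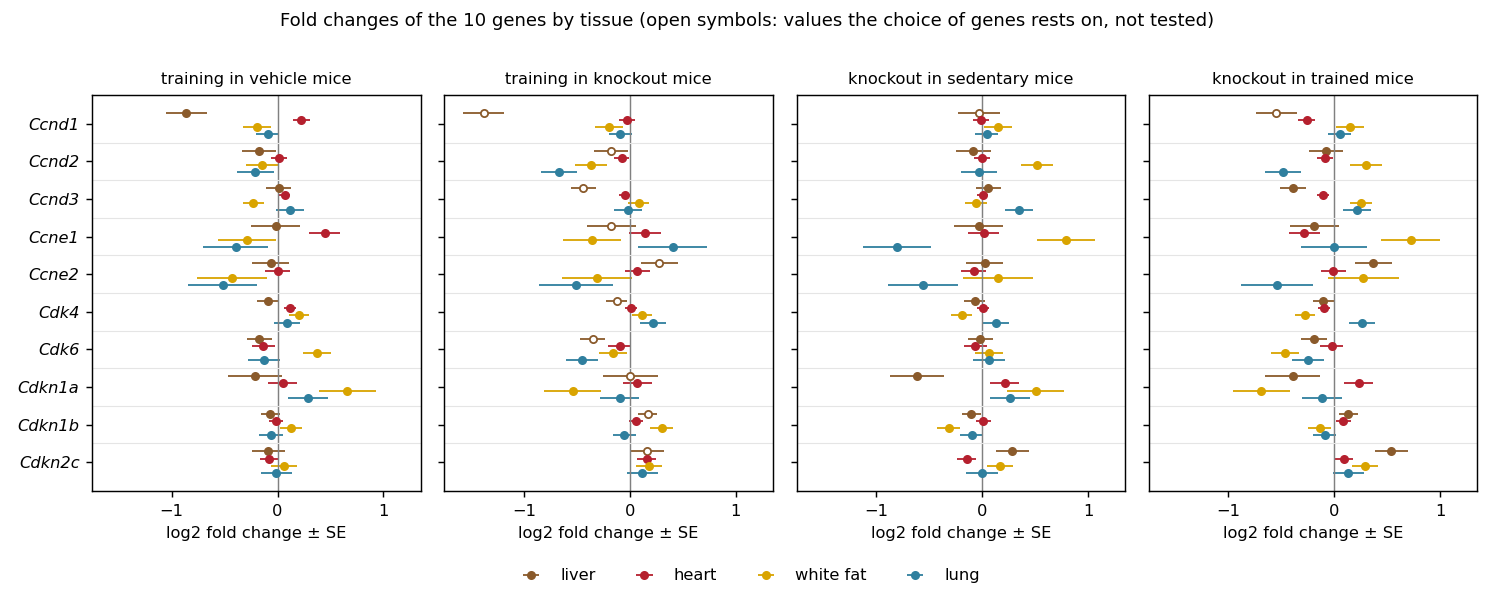
Log2 fold change with bars of 1 SE for the 10 genes (rows) in liver, heart, white fat and lung (colours) in each of 4 comparisons (panels); open symbols are liver values on which the choice of genes rests and which carry no test. Ccnd1 in liver lies at -0.86 and -1.38 in the training panels, while the other tissues lie between -0.20 and 0.22 there.

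In fat and lung the tables list transcripts with their lengths, so levels can be compared between genes. The measure used is the estimated count divided by transcript length, scaled so that each library has the same sum (as in TPM). In white fat Cdkn2c led by this measure, at 428 ± 61.8 (SD over the 12 libraries of all groups), with its lowest library, 352, above the highest of Ccnd3, 198. Ccnd3 at 171 ± 15, Ccnd2 at 111 ± 24.3 and Cdk4 at 89 ± 11.8 followed, each overlapping its neighbour in this order. Cdkn1b at 41.2 ± 6.08, Cdkn1a at 27.7 ± 8.25 and Ccnd1 at 23.5 ± 3.22 formed the next overlapping run. Ccne1, Cdk6 and Ccne2 were lowest, at 3.97 ± 1.42, 3.84 ± 0.676 and 1.07 ± 0.307.

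The order in lung was another one. Ccnd3 at 170 ± 20.7 and Ccnd1 at 155 ± 17 led there and overlapped, and Cdk4 followed at 101 ± 7.16. Cdkn1b at 78 ± 10.9, Ccnd2 at 45.7 ± 11.6, Cdkn1a at 44.1 ± 9.09 and Cdkn2c at 36.7 ± 3.15 overlapped in turn. Cdk6 stood at 10.8 ± 2.37, and the E cyclins at 0.916 ± 0.352 for Ccne2 and 0.915 ± 0.242 for Ccne1. Fat and lung were normalised separately, so the levels stand side by side without a test between tissues.

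**Figure D4:**
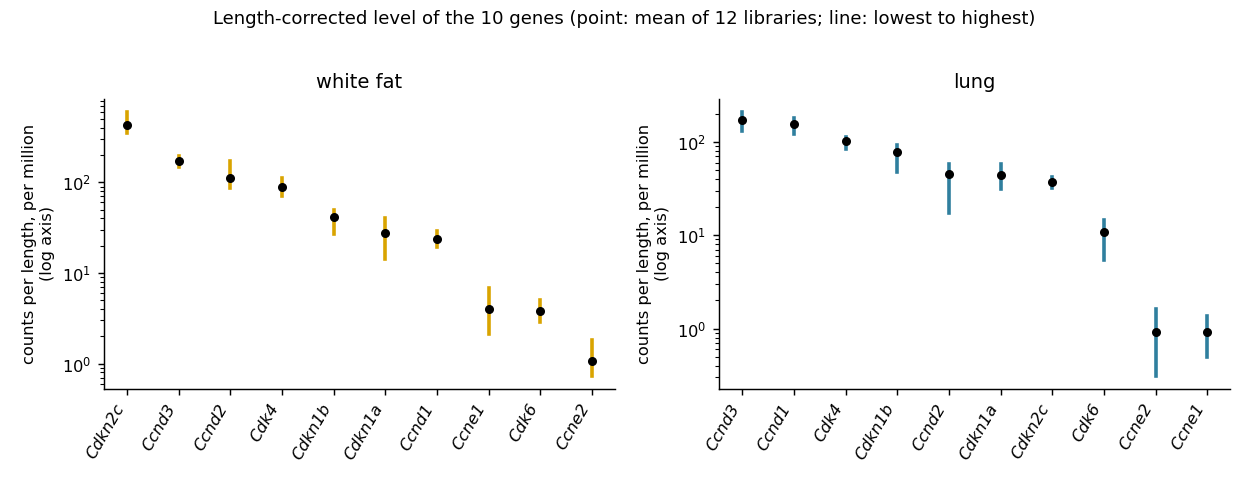
Estimated count divided by transcript length, scaled to 1 sum in every library (as in TPM), for the 10 genes in white fat and lung on a log axis; points are means of 12 libraries and lines run from the lowest to the highest library. Cdkn2c is first in fat with a mean of 428 and seventh in lung with 36.7.

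Transcripts from 2 starts made up Cdkn2c, and both are shown because the tables split the gene between them. The starts lie 1384 bases apart in the deposited coordinates and in the RefSeq windows, and were matched by this spacing. The windows are the 250 bases before each start on GRCm38.p6, minus strand, read 5′ to 3′ along the gene, with GC boxes in capitals.
Cdkn2c upstream start, chr4:109666757-109667006: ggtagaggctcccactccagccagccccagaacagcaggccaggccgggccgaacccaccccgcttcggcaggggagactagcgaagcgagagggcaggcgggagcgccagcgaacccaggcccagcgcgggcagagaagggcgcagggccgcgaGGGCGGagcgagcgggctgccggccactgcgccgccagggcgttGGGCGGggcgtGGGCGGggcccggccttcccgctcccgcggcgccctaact
Cdkn2c downstream start, chr4:109665373-109665622: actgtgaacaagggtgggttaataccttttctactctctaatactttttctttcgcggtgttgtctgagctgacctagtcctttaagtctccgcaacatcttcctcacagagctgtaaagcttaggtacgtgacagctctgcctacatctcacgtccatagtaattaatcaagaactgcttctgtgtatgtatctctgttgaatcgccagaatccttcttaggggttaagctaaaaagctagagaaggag
The upstream window holds 3 GC boxes and is 77.2% G and C, and the downstream window holds none and is 42.8% G and C, where the median of all windows is 52.4%. The shorter transcript, of 1106 bases and from the downstream start, took 70.7% ± 3.48 of the gene's estimated counts in fat and 64.1% ± 6.8 in lung (SD, n = 12 each). The transcript of 2038 bases from the upstream start took the rest. In sedentary knockout fat the shorter one had 66.9% ± 3.4, and in the other 3 fat groups 70.3% to 73.1% (n = 3 each), a difference that was not tested. Cdkn1a also had 2 starts, 2790 bases apart, and its downstream transcript took 91.8% ± 5.05 in fat and 92.9% ± 2.31 in lung. Ccnd3 drew 99.2% of its counts in fat and 96.7% in lung from its transcript of 1979 bases. The 3 transcripts of Ccne2, on few reads, could not be apportioned steadily: one took 4.17% to 99.5% of the gene's counts over the fat libraries.

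In white fat no member was called by edgeR, and the lowest adjusted p was that of Cdk6 for the knockout in trained mice. Cdk6 stood at 21.8, 24.4 and 22.3 CPM in trained vehicle fat and at 20.1, 15.5 and 14.7 CPM in trained knockout fat, with no overlap. In log2 the change was -0.46 (SE 0.13), at an edgeR adjusted p of 0.0665. DESeq2 gave an adjusted p of 0.024, and leaving out trained knockout replicate 1 gave 0.0173 at a fold change of -0.62. These 2 were the only calls in 13 alternatives, whose edgeR adjusted p reached 0.32. Training differed from rest by 0.37 (SE 0.13) in vehicle mice and by -0.16 (SE 0.13) in knockout mice, and the difference of these responses was -0.53 (SE 0.19), edgeR adjusted p = 0.188, or 0.0488 without trained knockout replicate 1. The latter was the only call in 18 alternatives, whose edgeR adjusted p reached 0.449.

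Cdkn1a had the largest difference between training responses among the members in fat. Its values were 12.3, 16.4 and 26.3 CPM in sedentary vehicle, 28.6, 32.6 and 25.2 in trained vehicle, 27.7, 25.6 and 25.1 in sedentary knockout and 24, 17.4 and 12.7 in trained knockout fat. Trained vehicle fat was higher than sedentary vehicle fat by 0.66 (SE 0.27), with overlap, whereas every trained knockout library lay below every sedentary knockout library, at -0.54 (SE 0.27). Ranges did not overlap for 19.1% of all genes in the latter comparison. The difference between these responses was -1.20 (SE 0.38), with an unadjusted p of 0.00925 and an edgeR adjusted p of 0.159, and DESeq2 gave an adjusted p of 0.0482. Only DESeq2 called it in 18 alternatives, and the edgeR adjusted p reached 0.385.

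Ccnd2 was 354, 269 and 449 CPM in sedentary knockout fat against 249, 256 and 242 CPM in sedentary vehicle fat. All 3 knockout libraries lay higher and differed widely among themselves, in a comparison where the ranges of 21% of all genes did not overlap. In log2 the change was 0.52 (SE 0.15), at an edgeR adjusted p of 0.115, and DESeq2 gave 0.0253. Only DESeq2 called it in 13 alternatives, and the edgeR adjusted p reached 0.381. Ccne1 was 4.77 ± 1.48 against 2.75 ± 0.495 CPM in the same groups and 3.73 ± 0.819 against 2.24 ± 0.401 CPM in trained knockout against trained vehicle fat (SD, n = 3 each), with edgeR adjusted p of 0.173 and 0.139. Cdkn2c was 237, 246 and 333 CPM in trained knockout and 216, 215 and 228 CPM in trained vehicle fat, 0.29 (SE 0.12) in log2, at an edgeR adjusted p of 0.172. Cdk4 differed by -0.28 (SE 0.10), adjusted p = 0.108 by edgeR, between those groups.

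edgeR called 0 of 10 members in each of the 5 fat comparisons. Background calls were 0% of the 15448 genes for training in vehicle mice, 0% for training in knockout mice, 0.557% for the knockout in sedentary mice, 4.43% for the knockout in trained mice and 0% for the difference between the training responses. Members at an unadjusted p under 0.05 numbered 3, 2, 3, 6 and 2 in that order, against 18%, 16.3%, 17.9%, 25.4% and 18.4% of all genes. Under DESeq2 the counts of called members were 0, 0, 1, 1 and 1, against 5.39%, 4.13%, 6%, 13.3% and 5.33% of the genes it gave an adjusted p. Ranges did not overlap for 6 of 10 members in the knockout comparison of trained mice, where this held for 30.5% of all genes.

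Cell markers moved with the same groups in fat. The macrophage markers, all 10 detected, summed to 1392, 1503 and 1273 CPM in trained vehicle fat, 525 to 926 in trained knockout fat, 693 to 930 in sedentary vehicle fat and 755 to 931 in sedentary knockout fat. The B lymphocyte markers, all 8 detected, summed to 186, 24.9 and 82.1 CPM in trained vehicle fat and 15.5 to 28.4 CPM in every other library. For the knockout in trained mice edgeR called 4 of the 8 B lymphocyte and 2 of the 10 macrophage markers lower, where 4.43% of all genes were called. It called 0 of the 8 white adipocyte markers there. The white adipocyte markers summed to 25327 to 30361 CPM in trained vehicle fat, 34663 to 37195 in sedentary vehicle fat, 28653 to 32747 in sedentary knockout fat and 28724 to 40089 in trained knockout fat. The hepatocyte markers other than Cyp2e1 were high in trained knockout replicate 2, as given above, and the median of all 10 for the knockout in trained mice was 4.98, with 0 called. The part of these cells in the values of Cdk6 and Cdkn1a was not tested. Without the 2 libraries highest in B lymphocyte markers, an alternative chosen after seeing the data, the knockout difference in trained mice was -0.54 for Cdk6 and -0.85 for Cdkn1a, at edgeR adjusted p of 0.32 and 0.374. Without the 2 libraries high in hepatocyte markers, also chosen after seeing the data, it was -0.39 for Cdk6 and -0.66 for Cdkn1a, at 0.198 and 0.306, and Ccnd2 for the knockout in sedentary mice was 0.53, at 0.171.

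Among the 89 pathway genes tested in fat, 4 were called for the knockout in trained mice, where 4.43% of all genes were, so their share is near the background. Gadd45a, a p53 target that responds to DNA damage, fell from 53.2 ± 3.26 to 19.7 ± 4.77 CPM, a log2 fold change of -1.45 (SE 0.26) and an edgeR adjusted p of 0.0363. Bax, the p53 target that permeabilises mitochondria, fell from 34.9 ± 1.19 to 26.3 ± 1.25 CPM, adjusted p = 0.0363 by edgeR. Pcna, the sliding clamp of DNA replication and the 1 called gene of S phase and mitosis, fell from 52 ± 0.697 to 39.4 ± 2.7 CPM, with an edgeR adjusted p of 0.0385. Wwtr1, the Hippo pathway coactivator TAZ, rose from 127 ± 1.44 to 166 ± 9.68 CPM, adjusted p = 0.0372 by edgeR (SD, n = 3 each). Wwtr1 was also called for the knockout in sedentary mice, at 200.4 ± 13.4 against 150.4 ± 8.74 CPM, with an edgeR adjusted p of 0.0459. All 4 calls in trained mice were lost when any of trained vehicle replicates 1, 2 and 3 or trained knockout replicates 2 and 3 was left out, at edgeR adjusted p of 0.0793 to 0.185, and without the libraries high in B lymphocyte markers, at 0.286 to 0.309, or high in hepatocyte markers, at 0.0791 to 0.0829. The Wwtr1 call in sedentary mice was lost with no filter on low genes, at 0.0501, with the replicate number as a block, at 0.0659, in a fit of these 2 groups alone, at 0.119, without the libraries high in B lymphocyte markers, at 0.096, and when any of sedentary vehicle replicates 1, 2 and 3 or sedentary knockout replicates 2 and 3 was left out, at 0.0691 to 0.197.

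**Figure D5:**
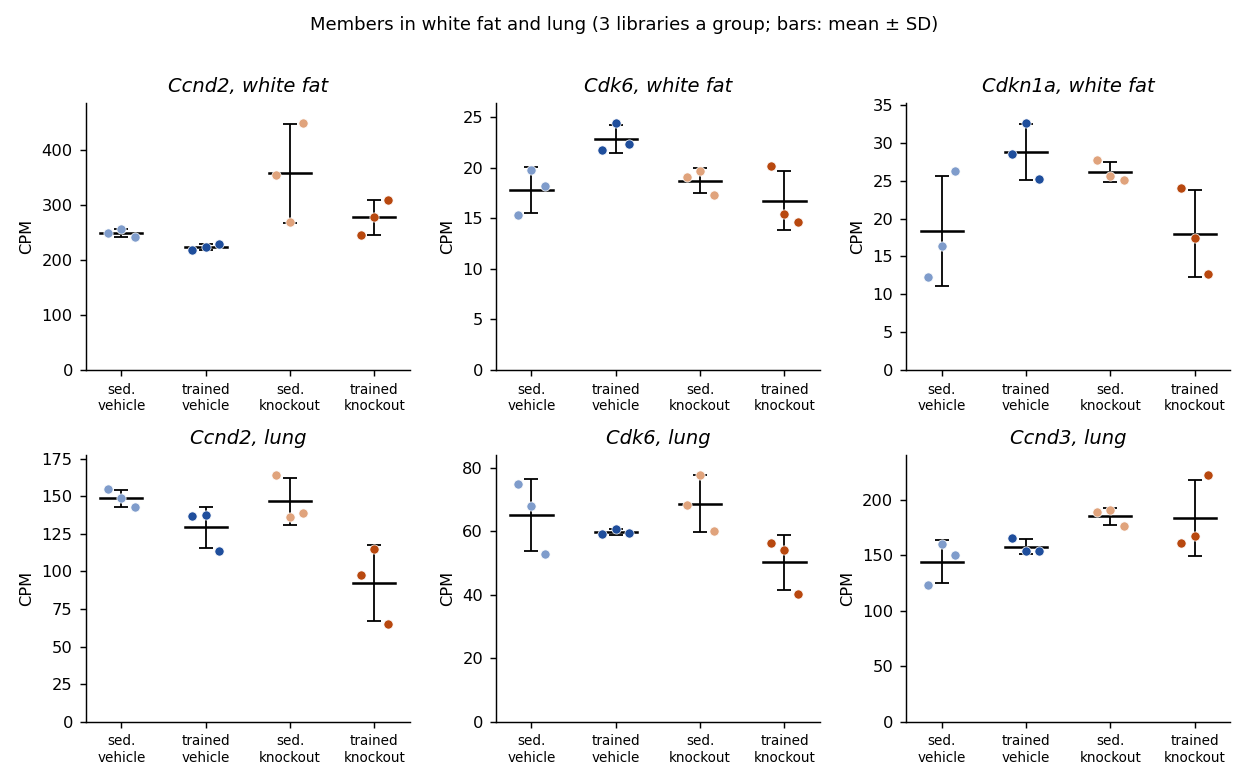
CPM of Ccnd2, Cdk6 and Cdkn1a in white fat and of Ccnd2, Cdk6 and Ccnd3 in lung in each library by group, with a line at the mean and bars of 1 SD (3 libraries a group). Cdk6 in fat lies at 21.8 to 24.4 CPM in trained vehicle and 14.7 to 20.1 CPM in trained knockout mice, and Ccnd2 in lung lies at 64.8 to 115 CPM in trained knockout mice, below the other 3 groups except for 1 trained vehicle library at 113 CPM.

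In lung Ccnd2 was lowest in trained knockout mice. It stood at 97.4, 115 and 64.8 CPM there and at 165, 136 and 139 CPM in sedentary knockout lungs, with no overlap. The log2 fold change was -0.67 (SE 0.17), with an unadjusted p of 0.00187 and an edgeR adjusted p of 0.24, and DESeq2 gave an adjusted p of 0.0327. Only DESeq2 called it in 11 alternatives, and the edgeR adjusted p reached 0.58. Cdk6 in the same groups was 56.4, 54.1 and 40.4 against 68.3, 78 and 60.1 CPM, also without overlap, at -0.45 (SE 0.15) and an edgeR adjusted p of 0.24. Ranges did not overlap for 3 of 10 members and 23.4% of all genes there. Trained knockout replicate 3 was the lowest library for both genes and the highest lung library for Ccnd3, Cdk4 and Cdkn2c, at 223, 100.1 and 33.1 CPM. Its alveolar and airway markers summed to 92077 CPM, against 44938 to 56960 in the other 11 lung libraries, and its endothelial markers to 2468 CPM. Endothelial markers, all 8 detected, summed to 2763, 3035 and 2468 CPM in trained knockout and 3498, 3733 and 3060 CPM in sedentary knockout lungs, without overlap, and their part in the values of Ccnd2 and Cdk6 was not tested. Without it Ccnd2 differed by -0.49 and Cdk6 by -0.33 for training in knockout mice, and Ccnd2 by -0.31 for the knockout in trained mice, where it differed by -0.49 with all libraries.

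Ccnd3 was 189, 191 and 176 CPM in sedentary knockout lungs against 123, 160 and 150 CPM in sedentary vehicle lungs, with no overlap, at a log2 fold change of 0.35 (SE 0.13) and an edgeR adjusted p of 0.279. Ranges did not overlap for 2 of 10 members and 21.4% of all genes in this comparison. Ccnd1, at 238 to 319 CPM in the 12 lungs, overlapped between groups in every comparison. edgeR called 0 of 10 members in each lung comparison, where it called 0.204% of the 16151 genes for training in vehicle mice and 0% in the other 4. Members at an unadjusted p under 0.05 numbered 0 for training in vehicle mice, 2 for training in knockout mice, 2 for the knockout in sedentary mice, 1 for the knockout in trained mice and 0 for the difference between the training responses, against 12.8%, 16.6%, 13.6%, 16.2% and 15.2% of all genes. DESeq2 called 1 member, Ccnd2, for training in knockout mice, where it called 1.17% of the genes it gave an adjusted p. It called 0 in the other 4 comparisons, against 2.65% for training in vehicle mice, 1.86% and 0.815% for the knockout in sedentary and trained mice and 2.03% for the difference between the training responses. Of the 90 pathway genes tested in lung 0 were called by edgeR in any comparison. The genes of S phase and mitosis, all 21 tested, had a median of -0.36 for training in vehicle lungs, where 7 had an unadjusted p under 0.05, and of 0.11 in knockout lungs, where 1 did. For the knockout the median was -0.33 in sedentary mice, where 5 did, and 0.12 in trained mice, where 2 did. Training in vehicle mice and the knockout in sedentary mice share the sedentary vehicle lungs. The sums of the 8 B lymphocyte markers lay at 110 to 312 CPM in sedentary vehicle lungs and at 38.2 to 91.9 CPM in trained ones, with a median of -1.87 there and of 0.16 for training in knockout lungs. T lymphocyte markers, 8 of 9 detected, had medians of -0.87 and 0.14 in the same comparisons. For the knockout in sedentary lungs the medians were -0.96 for B and -0.48 for T lymphocyte markers. The part of these cells in the values of S phase and mitosis was not tested.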

How the data were processed

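Libraries were made from Trizol and RNeasy extracts with an Illumina kit, per the labels' protocols, and the submitters' processing notes name STAR 2.7.8a and Partek, and as builds GRCm39 and mm10, without their roles. The deposited liver and heart tables hold a scaled signal, estimated reads divided by 1 factor per library, although the labels call it CPM. The deposited fat and lung tables hold expected counts per transcript. Rows were summed per symbol, and fat and lung sums were rounded.

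Liver and heart values were brought to CPM with 1 factor per tissue, and genes with a mean of 1 CPM or more were tested with limma 3.58.1 (trend) on log2(CPM + 1). Reads there were estimated from the value of 1 read in each library: 80.9 to 83.7% of values were whole multiples within 0.02 reads. Fat and lung counts were tested with edgeR 4.0.16 (quasi-likelihood, TMM, filterByExpr). Each tissue was fitted alone, with 5 comparisons and Benjamini-Hochberg adjustment over all its genes, in R 4.3.3. For edgeR, a fold change divided by the square root of F served as its SE. On simulated training effects in vehicle mice, 100 genes were changed 2-fold and 100 others 1.5-fold in the same run. At 2-fold, 83 were recovered in liver, 100 in heart, 69 in fat and 74 in lung, and at 1.5-fold 47, 80, 42 and 22. False calls numbered 11, 9, 4 and 7. Only genes at 2 CPM or more were changed, so recovery of lower members was not measured. Adjustment is stricter where fewer genes change, so recovery in the real comparisons may be lower.

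Members and lists were chosen with earlier results of these data known. Named besides the members are called pathway genes (up to 4 a list and comparison, by adjusted p), the 5 genes most like Ccnd1 in liver with predicted genes and receptor segments left out, and Arntl. Comparisons that chose the members carry no p, and their counts past the threshold are a description. In 1 comparison, the knockout in sedentary lungs, all 3 same-numbered pairs deviated together (r of 0.116 to 0.38). It was picked out from all comparisons checked, and whether the numbers pair the samples there was not tested. In the others the number was taken as only a name. Alternatives were DESeq2 1.42.0 or RLE factors, edgeR on estimated reads, TMM rescaling, a pseudocount of 0.1, no filter, the replicate number as a block, the compared groups alone, and leaving out libraries. Chi-square comparisons found no pair of libraries of a group within counting noise.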

Additional observations from a re-analysis of the deposited data

Results flagged for a closer look

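Of 116 groups of 5 libraries examined in liver and heart, for the members and the other genes named there, 2 held a library far from the other 4. Chance flags about 1 in 20 such groups, or 5.8 here. Cdkn1b in trained knockout hearts was 33.6 CPM in replicate 5, against 39.6 to 40.6 CPM in the other 4 libraries. The gap took up 0.857 of the group's range, and that library also held 280.9 CPM of white adipocyte markers, whose part in the value was not tested. Arntl in trained vehicle hearts was 1.33 CPM in replicate 4, against 0.405 to 0.545 CPM in the others, a gap of 0.849 of the range, on at most 24 estimated reads a library.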

How the results depend on the processing

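Over 43 gene results with an unadjusted p under 0.05 and 641 recomputed values, 57 lost a call, 13 gained one and 571 did neither. The 571 include liver values given as a description, with no adjusted p, which could neither gain nor lose a call. These are Ccnd1, Ccnd3 and Cdk6 for training in knockout mice, Ccnd1 for the knockout in trained mice and Ccnd3 for the difference between training responses. The number that reversed direction was 0, which picking results by a low p makes likely from the outset. Counts of called members moved from 0 to 1 with the compared groups alone for the knockout in trained livers (Cdkn2c), and from 0 to 1 with DESeq2 for the knockout in sedentary fat (Ccnd2), the knockout in trained fat (Cdk6), the difference between training responses in fat (Cdkn1a) and training in knockout lungs (Ccnd2). Leaving out each library in turn gave 0 to 1 called members for training in vehicle livers, the knockout in trained livers, the knockout in trained hearts, and the knockout in trained fat and the training response difference in fat, and 0 to 2 for training in vehicle hearts. It gave 0 in the other tested comparisons. With the replicate number as a block the count of called members was 0 in every tested comparison, as without it. This includes the knockout in sedentary lungs, where same-numbered libraries deviated together. Across whole tables the block gave 270 calls against 337 for the knockout in trained livers, 10 against 86 for the knockout in sedentary fat and 12 against 33 for training in vehicle lungs. Whole-table calls varied more: leaving out 1 library gave 4 to 595 for the knockout in trained livers (main 337), 418 to 1424 for training in vehicle hearts (main 1113), 4 to 270 for the knockout in trained hearts (main 70), 0 to 199 for the knockout in sedentary fat (main 86), 0 to 1630 for the knockout in trained fat (main 685) and 0 to 206 for training in vehicle lungs (main 33), and the other settings gave 20 to 509, 521 to 1180, 0 to 88, 0 to 921, 0 to 1968 and 6 to 411. The causes were not tested. With all listed markers no fat or lung library met the limit for other-tissue transcripts. With Cyp2e1 set aside, a choice made after seeing the data, 2 fat libraries did, and without them 0 members were called in each fat comparison, while whole-table calls for the knockout in trained fat went from 685 to 1 and for the knockout in sedentary fat from 86 to 273. Liver E cyclins, Cdkn1a and Cdkn2c rest on 15 to 98 estimated reads a library, and adding 1 CPM before the log shrinks their fold changes.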
